A study of Homo sapiens with 18 samples.

Results

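This report describes 9 transcription factor genes that divide the neural tube along its dorsoventral axis: PAX3, PAX7, PAX6, DBX1, DBX2, NKX6-1, NKX6-2, NKX2-2 and OLIG2. They were chosen by name, with earlier results of these data known, and are 9 of the 37550 rows of the expression table. PAX, DBX and NKX genes encode homeodomain proteins. OLIG2 encodes a basic helix-loop-helix protein, so the set is one of dorsoventral patterning genes and not of homeobox genes alone.

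In the developing neural tube, BMP and WNT proteins spread from the dorsal roof plate and surface ectoderm, and Sonic hedgehog spreads from the ventral floor plate and notochord. Progenitors read these signals by switching on or off a small code of transcription factors, and each combination marks a stripe of progenitors that makes its own neurons. PAX3 and PAX7 mark dorsal progenitors, PAX6 and the DBX genes intermediate ones, and the NKX genes and OLIG2 ventral ones, with NKX2-2 nearest the floor plate. Several neighbours in the code repress each other, which sharpens the borders between stripes.

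Messenger RNA was measured in H1, an established wild-type human pluripotent stem cell line, in 9 groups of 2 biological replicates, to ask how 2 early neural ectoderm populations respond to media for the forebrain, midbrain and hindbrain. Undifferentiated cells (hPSC) were collected at day 0. Anterior and posterior neural ectoderm (aNE and pNE) were collected at day 2. Cells of each origin were collected at day 4 after a forebrain medium (aNE_T, pNE_T), a midbrain medium (aNE_M, pNE_M) or a hindbrain medium (aNE_H, pNE_H).

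All groups other than hPSC spent day 1 in the TGF-beta receptor inhibitor A8301 at 1 µM, the MEK inhibitor trametinib at 250 nM, the WNT secretion inhibitor C59 at 1 µM and the BMP receptor inhibitor LDN193189 at 100 nM. On day 2, aNE cells received A8301, LDN193189 and C59 at those doses, with the survival agent thiazovivin at 1 µM. On day 2, pNE cells received A8301, LDN193189 and thiazovivin at the same doses. They also received XAV939, a tankyrase inhibitor that lowers WNT signalling, at 1 µM, TTNPB, which activates retinoic acid receptors, at 50 nM, and 20 ng/mL of FGF2. Day-2 cells were plated at 37500 cells per cm2. For day-4 groups, aNE was plated at 75000 and pNE at 150000 cells per cm2, so origin and density cannot be told apart at day 4. A change from day 2 to day 4 also holds more time in culture and a higher plating density. Medium, time and density cannot be told apart in such a change. Media compared within an origin share day and density. The forebrain medium of day 3 held XAV939 at 1 µM, LDN193189 at 100 nM and FGF2 at 20 ng/mL. Its later agents and those of the other media were not used here, so no result is tied to them.

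Values are TPM, the abundance of a gene's transcripts relative to all transcripts of a library. They are scaled for transcript length and keep no read depth. A 0 is therefore given as listed at 0. Between 13686 and 14679 genes reached 1 TPM in a library. Replicates correlated across tested genes at Pearson's r of 0.982 to 0.987, and libraries of different groups at 0.879 to 0.968. Genes are not independent of each other. POU5F1, the pluripotency factor, was at or above 2878 TPM in both hPSC libraries. The neural progenitor gene SOX1 was at 7.73 and 6.66 TPM in aNE and at 4.95 and 4.10 TPM in aNE_T, and reached no more than 1.75 TPM in any library of the other groups. SOX2, which marks both stem cells and neural progenitors, was lowest in aNE_M, at 73.2 and 70.4 TPM, and highest in aNE_T, at 457 and 453 TPM. In bulk RNA, fewer cells of a type and less RNA per cell cannot be told apart.

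PAX3, PAX7 and NKX6-1 had the largest rises of the set in the midbrain medium in cells of both origins, and the 250 bases before the RefSeq start of each are shown for that reason (build GRCh38.p14, 5' to 3' on the gene's strand). Capitals mark CCAAT, the binding sequence of the general factor NF-Y, or its reverse complement ATTGG. PAX3 lies at chr2:222199887-222298998 on the minus strand and its upstream window at chr2:222298999-222299248. PAX7 lies at chr1:18630846-18748866 on the plus strand and its window at chr1:18630596-18630845. NKX6-1 lies at chr4:84491985-84499292 on the minus strand and its window at chr4:84499293-84499542.
PAX3: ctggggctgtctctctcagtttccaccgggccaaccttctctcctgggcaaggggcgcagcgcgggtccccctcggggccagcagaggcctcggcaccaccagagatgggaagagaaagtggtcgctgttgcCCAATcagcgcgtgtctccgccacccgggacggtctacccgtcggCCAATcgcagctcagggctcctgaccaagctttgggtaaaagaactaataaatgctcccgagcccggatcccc
PAX7: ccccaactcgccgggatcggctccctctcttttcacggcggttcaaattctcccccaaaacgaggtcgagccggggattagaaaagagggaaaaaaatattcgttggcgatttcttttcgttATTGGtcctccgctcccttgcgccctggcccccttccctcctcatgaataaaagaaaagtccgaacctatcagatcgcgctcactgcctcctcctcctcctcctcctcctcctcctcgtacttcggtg
NKX6-1: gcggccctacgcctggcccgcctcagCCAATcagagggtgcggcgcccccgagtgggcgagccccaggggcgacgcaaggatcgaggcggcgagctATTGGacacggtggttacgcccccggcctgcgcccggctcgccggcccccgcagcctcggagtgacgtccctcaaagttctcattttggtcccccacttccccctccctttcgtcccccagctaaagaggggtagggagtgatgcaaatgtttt

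The windows of PAX3 and NKX6-1 each held 2 CCAAT matches and that of PAX7 held 1, on either strand. CCAAT was not particular to these genes: the windows of PAX6, DBX1 and NKX2-2, not shown, held 1, 2 and 2 matches. CCAAT was found in 32.0% of 35116 RefSeq windows of this length. The homeodomain core TAAT was found once in the windows of PAX3 and PAX7 and was not matched in that of NKX6-1, against 47.4% of all windows. CTTTGA, the core bound by the TCF factors of WNT signalling, was found once in the NKX6-1 window and was not matched in those of PAX3 and PAX7. It was also found once in the DBX1 window, and in 11.2% of all windows. The GLI sequence GACCACCCA of hedgehog signalling (0.199% of windows) and the retinoic acid receptor half-site AGGTCA (12.1% of windows) were matched in none of the 3. A match describes letters in a window and is not a measured site.

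At day 2 the set was led by PAX6, at 28.9 and 29.3 TPM in aNE and 1.34 and 2.54 TPM in pNE. In the midbrain medium, the dorsal genes PAX3 and PAX7 and the ventral gene NKX6-1 rose in cells of both origins, and PAX6 fell in both. In the hindbrain medium the origins differed: PAX3 and PAX7 were lower and NKX6-1 higher in pNE_H than in aNE_H. In the forebrain medium, PAX7 was high in aNE_T and PAX6 in both groups. The ventral genes NKX6-2, NKX2-2 and OLIG2 and the intermediate gene DBX2 stayed below 1 TPM in all 18 libraries.

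**Figure D1:**
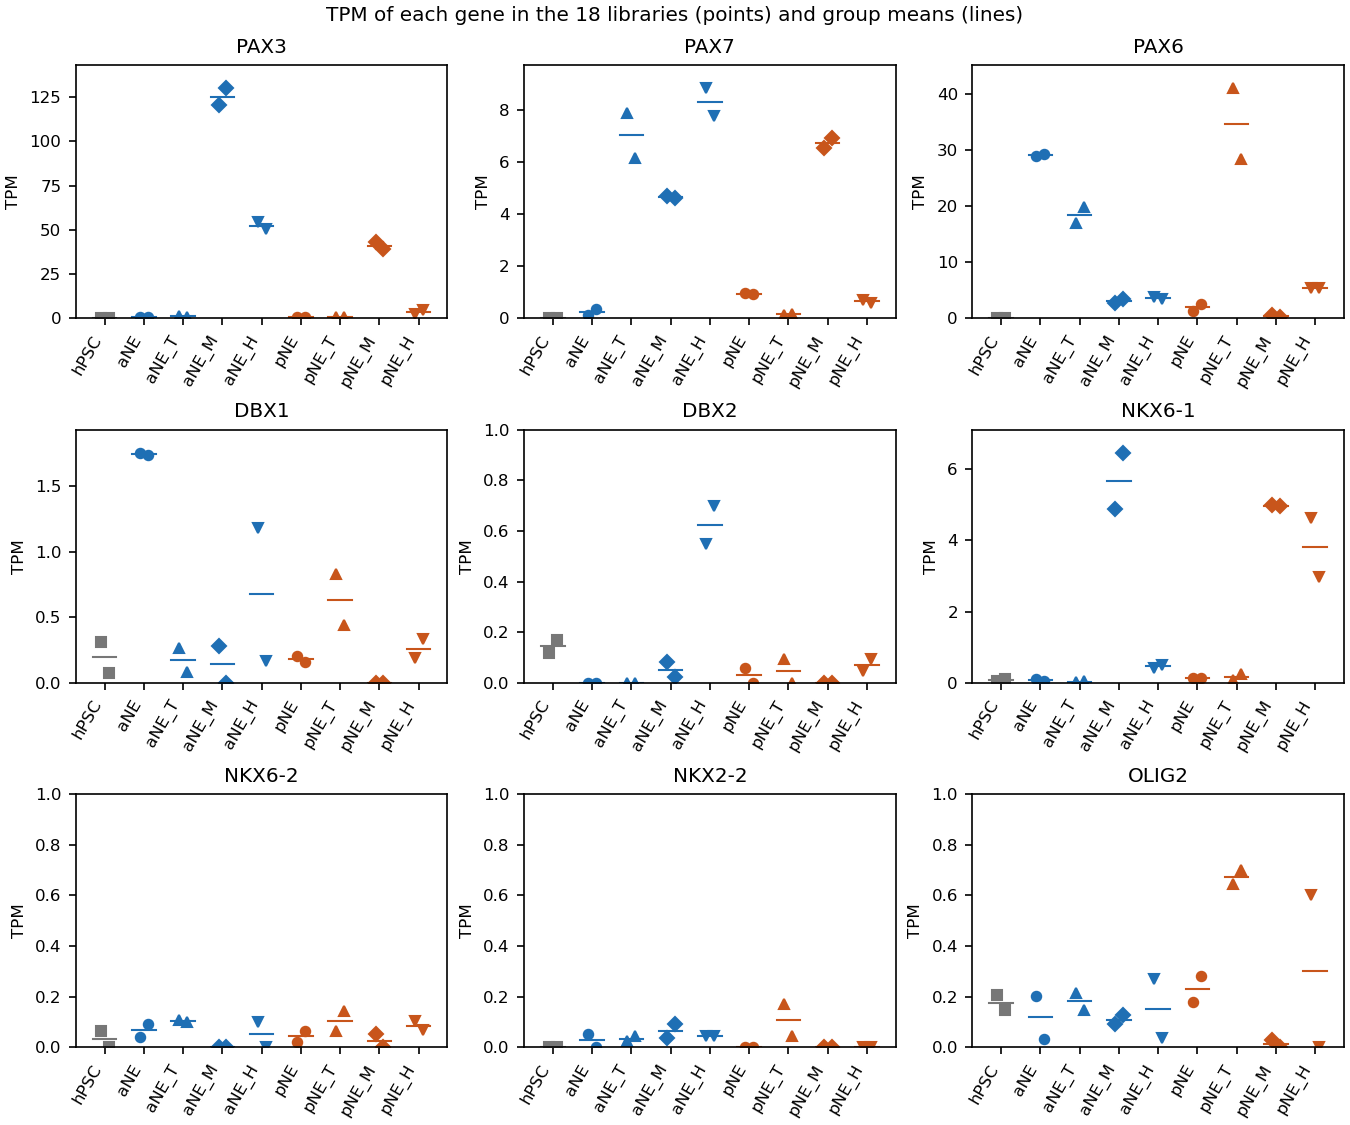
TPM of each of the 9 genes (vertical axes, linear, 1 scale per gene) in the 9 groups (horizontal axes). Points are the 2 libraries of a group and lines their mean. PAX3 stands at 120.4 and 130.0 TPM in aNE_M, whereas DBX2, NKX6-2, NKX2-2 and OLIG2 do not pass 0.701 TPM in any library.

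Comparisons were made on log2(TPM + 1), a scale that understates the change of low genes. Of the 9 genes, 5 passed the filter of at least 1 TPM in at least 2 libraries: PAX3, PAX7, PAX6, DBX1 and NKX6-1. A filter of this kind keeps genes through the groups where they are high. NKX6-1 reached 1 TPM only in aNE_M, pNE_M and pNE_H, and PAX3 and PAX7 only in day-4 groups. DBX1 reached it only in aNE and in aNE_H replicate 1. The counts of called members below are therefore not independent of the filter, and the 4 members that did not pass are outside them. A gene was called where limma gave a Benjamini-Hochberg adjusted p under 0.05 over the 17033 tested genes and a difference of at least 1 on the log2 scale. Errors of log2 differences are SE from the same limma fit, and each group has n = 2.

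Against hPSC, PAX6 and DBX1 were called in aNE, both higher, beside 13.5% of all tested genes. PAX6 alone was called in pNE, higher, beside 12.9% of all genes. These comparisons share the hPSC libraries. Between the origins at day 2, 2 of the 5 tested members were called, both lower in pNE, beside 3.85% of all genes. At day 4, pNE-derived against aNE-derived cells gave 1 called member in the forebrain medium (beside 7.77% of all genes). There were 2 in the midbrain medium (beside 5.74%), and the hindbrain medium gave 3 (beside 6.83%).

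From day 2 to day 4 in aNE-derived cells, 2 of 5 were called in the forebrain medium beside 9.03% of all genes. All 5 were called in the midbrain medium beside 12.0%, 3 higher and 2 lower. In the hindbrain medium 3 were called beside 10.1%. In pNE-derived cells the counts were 1 beside 10.2% in the forebrain medium, 4 beside 12.7% in the midbrain medium and 3 beside 12.3% in the hindbrain medium. Comparisons within an origin share the same day-2 libraries. These shares over all genes also stand beside the list counts from day 2 given below. The median difference of the 5 tested members was 2.19 in aNE_M and 1.99 in pNE_M, beside -0.02 and -0.06 over all tested genes. It leaves out the 4 members under the filter and includes NKX6-1, which passed through the midbrain groups and pNE_H. The median therefore describes the tested members only.

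**Figure D2:**
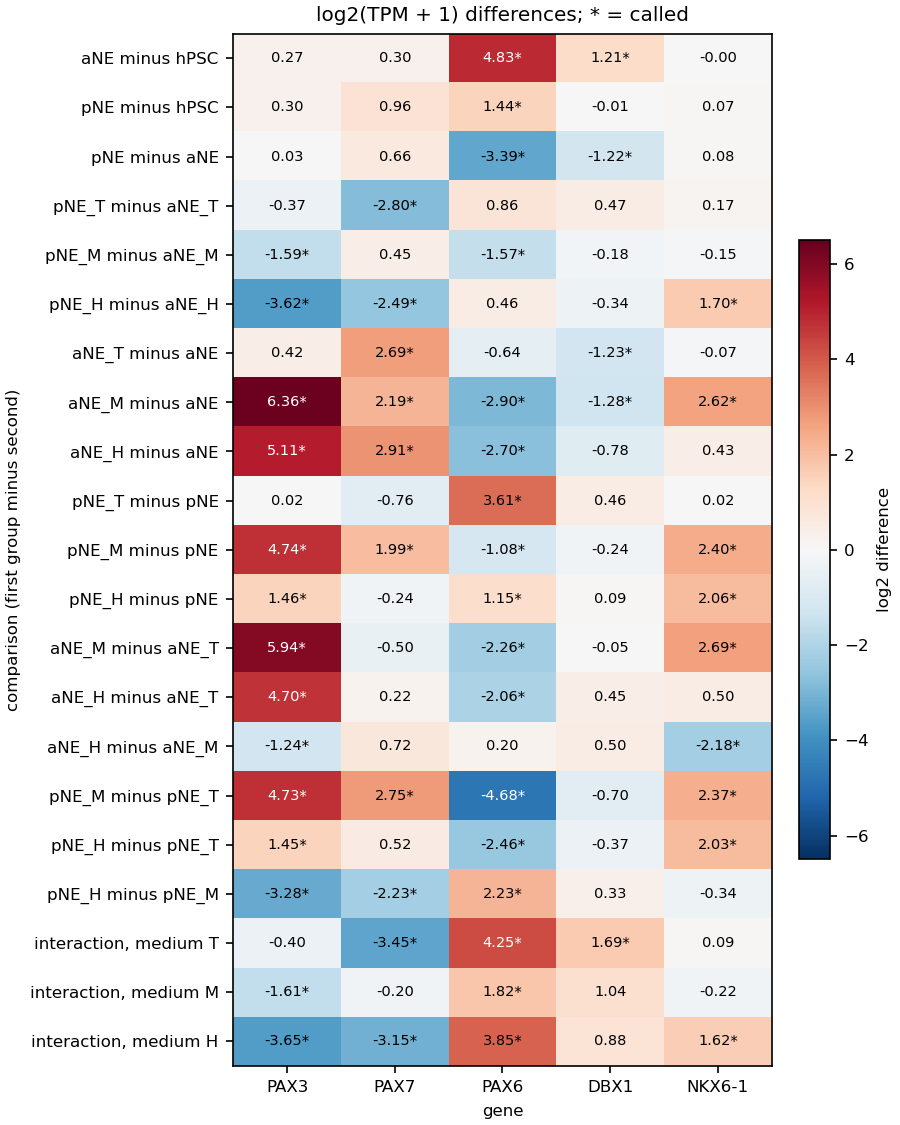
Differences in log2(TPM + 1) for the 5 tested genes (horizontal axis) in 18 comparisons of groups and 3 interactions (vertical axis, first group minus second). Colour and printed value give the difference and a star marks a called one. The PAX3 column runs from -3.65 to 6.36, and no DBX1 value passes 1.69.

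Among the dorsal genes, PAX3 encodes a paired-box factor of dorsal progenitors that is also used by neural crest and somites. It was at 0.206 and 0.341 TPM in hPSC, 0.475 and 0.601 TPM in aNE, and 0.421 and 0.724 TPM in pNE. In the aNE-derived groups it was at 1.45 and 0.715 TPM in aNE_T, 120.4 and 130.0 TPM in aNE_M, and 54.2 and 50.3 TPM in aNE_H. In the pNE-derived groups it was at 0.708 and 0.470 TPM in pNE_T, 43.0 and 38.9 TPM in pNE_M, and 2.37 and 4.54 TPM in pNE_H. The order of groups was aNE_M, aNE_H, pNE_M, pNE_H and aNE_T, with no overlap between neighbours. The libraries of pNE_T overlapped those of pNE, and those of pNE overlapped those of aNE.

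PAX3 rose from aNE by 6.36 ± 0.22 on the log2 scale in the midbrain medium (limma, adjusted p = 2.60e-10) and by 5.11 ± 0.22 in the hindbrain medium (adjusted p = 3.51e-09). From pNE it rose by 4.74 ± 0.22 in the midbrain medium (adjusted p = 4.06e-09) and by 1.46 ± 0.22 in the hindbrain medium (adjusted p = 2.03e-04). The forebrain medium gave 0.42 in aNE-derived and 0.02 in pNE-derived cells, neither of them called. Within each origin, PAX3 was lower in the hindbrain than in the midbrain medium, by -1.24 ± 0.22 in aNE-derived cells (adjusted p = 0.00182, background 4.92%) and by -3.28 ± 0.22 in pNE-derived cells (adjusted p = 3.29e-07, background 5.99%). The origin difference was -1.59 ± 0.22 in the midbrain medium (adjusted p = 2.25e-04) and -3.62 ± 0.22 in the hindbrain medium (adjusted p = 1.02e-07). On the linear scale the mean in pNE_H was 0.0661 of that in aNE_H.

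Because neural crest and somitic cells also use PAX3 and PAX7, markers of both were summed in every library. The 7 neural crest markers, all tested, summed to 60.7 to 68.0 TPM in aNE_M, where PAX3 was highest, and to 151 to 165 TPM in aNE_H. Their sums were 23.9 to 24.1 TPM in aNE, 27.0 to 33.6 TPM in pNE, 95.8 to 99.9 TPM in pNE_M and 82.1 to 85.2 TPM in pNE_H. The forebrain groups, with little PAX3, had sums of 88.3 to 89.7 TPM in aNE_T and 39.4 to 42.8 TPM in pNE_T. SOX9, which neural progenitors also express, was the largest part in each of these groups. The crest gene FOXD3 was at 0.0296 and 0.0728 TPM in aNE_M and 20.2 and 11.6 TPM in pNE_M. FOXD3 was highest in hPSC, at 35.2 and 31.8 TPM, and SOX10 was there at 3.08 and 2.78 TPM. The 7 markers summed to 59.1 to 65.7 TPM in hPSC. SOX10 was at 0.539 and 0.756 TPM in aNE_M, 4.96 and 3.90 TPM in aNE_H, 5.35 and 5.43 TPM in pNE_M, and 16.2 and 12.7 TPM in pNE_H.

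From day 2, the crest list gave 3 genes higher and 1 lower of 7 in aNE_M, 4 and 0 in aNE_H, 4 and 0 in pNE_M, and 3 and 0 in pNE_H. The 8 presomitic and somitic genes, of which 4 were tested, summed to 17.2 to 22.5 TPM in aNE_M, 30.8 to 32.5 TPM in pNE_M and 22.3 to 22.8 TPM in pNE_H, and to 2.45 to 2.76 TPM in aNE_H. In the forebrain groups they summed to 3.55 to 3.97 TPM in aNE_T and 19.4 to 25.2 TPM in pNE_T. From day 2, the 4 tested genes gave 2 higher and 1 lower in both aNE_M and pNE_M, 1 higher and 0 lower in aNE_H, pNE_T and pNE_H, and 0 and 0 in aNE_T.

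TBXT, a gene of early mesoderm and of the progenitors shared by the spinal cord and somites, moved with PAX3 in the midbrain medium. The aNE_M libraries held 2.72 and 4.01 TPM and those of pNE_M 1.21 and 1.94 TPM, against at most 0.121 TPM in any library of the other groups, aNE_H included. MEOX1, a somite gene, was at 13.7 and 16.4 TPM in aNE_M. Its pNE_M libraries were at 23.9 and 28.1 TPM, and its pNE_H mean was 15.7 ± 2.42 TPM (SD, n = 2). It was also at 19.8 and 15.8 TPM in pNE_T, where PAX3 stayed under 1 TPM, and at 0.876 and 1.42 TPM in aNE_H, where PAX3 was above 50 TPM. TCF15, a gene of paraxial mesoderm, was the gene called lower in both midbrain groups. MYF5, a muscle determination gene, was listed at 0 in all 18 libraries. The part of crest or somitic cells in the PAX3 and PAX7 values was not tested.

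PAX7, the closest relative of PAX3 and likewise a dorsal marker, was listed at 0 in both hPSC libraries. It was at 0.126 and 0.354 TPM in aNE, 7.89 and 6.16 TPM in aNE_T, 4.68 and 4.62 TPM in aNE_M, and 8.84 and 7.76 TPM in aNE_H. Among pNE-derived cells it was at 0.977 and 0.918 TPM in pNE, 0.120 and 0.180 TPM in pNE_T, 6.55 and 6.92 TPM in pNE_M, and 0.713 and 0.592 TPM in pNE_H. So PAX7 was high after all 3 media in aNE-derived cells, and after the midbrain medium alone in pNE-derived cells. At the top of the order, aNE_H overlapped aNE_T and aNE_T overlapped pNE_M, while both aNE_H libraries lay above both of pNE_M, a pair of groups that was not tested.

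PAX7 rose from aNE by 2.69 ± 0.16 in the forebrain medium (limma, adjusted p = 6.69e-08), 2.19 ± 0.16 in the midbrain medium (adjusted p = 2.63e-07) and 2.91 ± 0.16 in the hindbrain medium (adjusted p = 2.85e-08). From pNE it rose by 1.99 ± 0.16 in the midbrain medium (adjusted p = 6.69e-07). The values for pNE_T and pNE_H against pNE were -0.76 and -0.24, neither of them called. With a pseudocount of 0.1 the first was -2.08 and was called. Between origins, PAX7 was lower in pNE_T than in aNE_T by -2.80 ± 0.16 (adjusted p = 3.97e-08) and lower in pNE_H than in aNE_H by -2.49 ± 0.16 (adjusted p = 1.51e-07). The midbrain medium gave 0.45 ± 0.16 (adjusted p = 0.0781), which was not called.

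PAX7 at day 2 depended on the pseudocount, since its values lie below 1 TPM. With a pseudocount of 1 it was 0.66 ± 0.16 higher in pNE than in aNE (limma, adjusted p = 0.0157), under the size needed for a call. With a pseudocount of 0.1 the difference was 1.71 and was called (adjusted p = 0.00486, range over the alternatives 0.00486 to 0.136).

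The balance of the dorsal pair changed with medium and origin. The ratio of PAX3 to PAX7 in TPM was 0.184 and 0.116 in the libraries of aNE_T, 25.7 and 28.1 in aNE_M, and 6.14 and 6.49 in aNE_H. It was 6.56 and 5.63 in pNE_M, and 3.32 and 7.67 in pNE_H, where PAX7 was under 1 TPM. After the forebrain medium, aNE-derived cells thus had PAX7 with little PAX3. After the midbrain and hindbrain media, cells of both origins had more PAX3 than PAX7. Both genes could be told apart by sequence: of the 8067 distinct 31-base words in PAX3 transcripts (GENCODE), 3 also occur in PAX7.

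**Figure D3:**
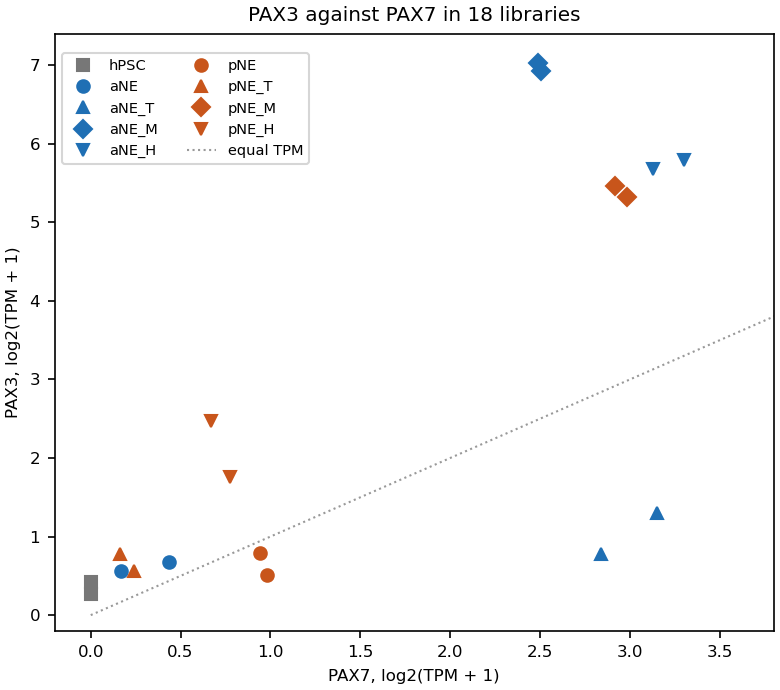
PAX3 (vertical axis) against PAX7 (horizontal axis), both as log2(TPM + 1), in the 18 libraries, with shape and colour for the group and a dotted line at equal TPM. The aNE_T libraries lie below the line, at PAX3 to PAX7 ratios of 0.184 and 0.116, and the aNE_M libraries lie far above it, at 25.7 and 28.1.

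Among the intermediate genes, PAX6 encodes a paired-box factor that marks intermediate and ventral progenitors of the neural tube and also most forebrain and eye field progenitors. It was at 0.0423 and 0.0808 TPM in hPSC, 28.9 and 29.3 TPM in aNE, and 1.34 and 2.54 TPM in pNE. At day 4 it was at 17.0 and 19.7 TPM in aNE_T, 2.72 and 3.37 TPM in aNE_M, and 3.87 and 3.44 TPM in aNE_H. In pNE-derived cells it was at 41.0 and 28.3 TPM in pNE_T, 0.508 and 0.232 TPM in pNE_M, and 5.39 and 5.39 TPM in pNE_H. PAX6 was therefore high in aNE and in both forebrain groups. The libraries of pNE_T and aNE overlapped, and no other neighbours in the order did.

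PAX6 rose from hPSC by 4.83 ± 0.21 in aNE (limma, adjusted p = 2.18e-09), and the rise in pNE was 1.44 ± 0.21 (adjusted p = 1.39e-04). The day-2 difference between pNE and aNE was -3.39 ± 0.21 (adjusted p = 2.14e-07). From there its changes depended on both origin and medium. In aNE-derived cells PAX6 fell by 2.90 in the midbrain medium (adjusted p = 2.28e-07) and fell by 2.70 in the hindbrain medium (adjusted p = 7.17e-07), and the forebrain medium gave -0.64, which was not called. In pNE-derived cells it rose by 3.61 ± 0.21 in the forebrain medium (adjusted p = 4.47e-08) and by 1.15 ± 0.21 in the hindbrain medium (adjusted p = 8.05e-04), and fell by 1.08 in the midbrain medium (adjusted p = 0.00132).

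The smaller PAX6 changes in pNE-derived cells lay near the size needed for a call. Over the alternatives they kept their sign, from -2.12 to -0.78 in the midbrain medium and from 0.85 to 1.49 in the hindbrain medium. Without pNE replicate 2 the fall in the midbrain medium was -0.78, without pNE_M replicate 2 it was -0.93, and under quantile normalization it was -0.91, none of them called. Without pNE replicate 1 the rise in the hindbrain medium was 0.85, also not called. At day 4 PAX6 was lower in pNE_M than in aNE_M by -1.57 ± 0.21 (limma, adjusted p = 1.46e-04). Between pNE_T and aNE_T the difference of 0.86 ± 0.21 (adjusted p = 0.00978) was not called, and it was 1.12 and called without pNE_T replicate 2 (adjusted p = 0.00610, range over the alternatives 0.00268 to 0.117).

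Eye field and forebrain markers were read beside PAX6. The 6 markers, of which 5 were tested, summed to 231 to 242 TPM in aNE, 63.8 to 89.3 TPM in pNE, 708 to 750.3 TPM in aNE_T and 41.4 to 45.1 TPM in pNE_T. In aNE_T the eye field gene SIX6 was at 161 and 159 TPM, and in pNE_T at 0.547 and 1.04 TPM. RAX, which defines the eye field, was at 14.7 and 12.4 TPM in aNE_T and 0.0530 and 0.193 TPM in pNE_T. The PAX6 means of the pair of forebrain groups, 18.4 and 34.6 TPM, were thus closer than the levels of these markers. Their part in the PAX6 values was not tested.

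Neural progenitor markers were lower in several of the groups where PAX6 was lower. The 7 pan-neural genes, all tested, summed to 1051 to 1076 TPM in aNE, 1665 to 1702 TPM in aNE_T, 638 to 681 TPM in aNE_M and 647 to 730.3 TPM in aNE_H. In pNE-derived cells the sums were 823 to 1006 TPM in pNE, 1250 to 1287 TPM in pNE_T, 581 to 628 TPM in pNE_M and 565 to 591 TPM in pNE_H. From day 2, none was higher and 2 were lower in aNE_M, aNE_H and pNE_H, and 1 was lower in pNE_M, whereas 3 were higher in aNE_T and 1 in pNE_T, with none lower. Against the forebrain medium of the same origin, 4 were lower in aNE_M, 2 in pNE_M and 5 in both hindbrain groups, with none higher. SOX2 was at 289 and 297 TPM in aNE, 97.7 and 79.8 TPM in aNE_H, 239 and 234 TPM in pNE_T, 127 and 103 TPM in pNE_M, and 101 and 87.0 TPM in pNE_H. The part of this change in the PAX6 values was not tested.

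PAX6 lies at chr11:31789026-31817961 on the minus strand. Its transcripts overlap ELP4, a gene on the opposite strand, over 5241 exonic bases, and 24.8% of the 31-base words of PAX6 transcripts occur in other genes, mostly in ELP4. In hPSC, ELP4 was at 19.8 and 18.6 TPM while PAX6 was at 0.0423 and 0.0808 TPM. Across the 18 libraries ELP4 lay between 12.1 and 31.7 TPM.

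DBX1 encodes a homeodomain factor of the progenitors at the dorsoventral midline and lies on the minus strand at chr11:20156155-20160475. Its level was low throughout, at 1.75 and 1.74 TPM in aNE and 1.18 and 0.167 TPM in aNE_H, and under 1 TPM in all other groups. It was at 0.313 and 0.0751 TPM in hPSC, 0.204 and 0.158 TPM in pNE, 0.826 and 0.443 TPM in pNE_T, 0.188 and 0.333 TPM in pNE_H, and 0.266 and 0.0843 TPM in aNE_T. DBX1 was listed at 0 in both libraries of pNE_M and in aNE_M replicate 2, and was at 0.280 TPM in aNE_M replicate 1. In the order of groups, aNE stood clear of aNE_H, which overlapped pNE_T, and pNE_H, hPSC, pNE, aNE_T and aNE_M overlapped one after another.

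DBX1 rose from hPSC by 1.21 ± 0.27 in aNE (limma, adjusted p = 0.00309) and its level in pNE was below that in aNE, by -1.22 ± 0.27 (adjusted p = 0.00889). The rise was 0.996 and not called under quantile normalization. The call between the origins was lost with a pseudocount of 0.1 (adjusted p = 0.0501), without aNE replicate 1 (adjusted p = 0.0545) and without aNE replicate 2 (adjusted p = 0.0533). Over the alternatives the adjusted p ran from 0.00628 to 0.0545. From aNE, DBX1 fell by 1.23 in the forebrain medium (adjusted p = 0.00381) and fell by 1.28 in the midbrain medium (adjusted p = 0.00252). In aNE_H the difference from aNE was -0.78 ± 0.27 and was not called. Without aNE_H replicate 1, the library at 1.18 TPM, it was -1.23 and was called, and without aNE_H replicate 2 it was -0.33.

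DBX2, which marks a broader domain around that of DBX1, did not pass the filter. It was highest in aNE_H, at 0.550 and 0.701 TPM, and reached 0.119 and 0.170 TPM in hPSC. It was listed at 0 in both libraries of aNE, aNE_T and pNE_M. The libraries of aNE_H did not overlap those of any other group, but all lay under 1 TPM, where TPM gives no depth to judge them by.

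Among the ventral genes, NKX6-1 encodes a homeodomain factor of ventral progenitors, including those of motor neurons, and is also a gene of pancreatic endoderm. It was at 0.0472 and 0.112 TPM in hPSC, 0.109 and 0.0461 TPM in aNE, and 0.124 and 0.146 TPM in pNE. In aNE-derived cells it was at 0.0135 and 0.0425 TPM in aNE_T, 4.87 and 6.46 TPM in aNE_M, and 0.410 and 0.504 TPM in aNE_H. In pNE-derived cells it was at 0.0741 and 0.241 TPM in pNE_T, 5.0 and 4.95 TPM in pNE_M, and 4.63 and 2.98 TPM in pNE_H. Thus 3 of the 6 day-4 groups had NKX6-1 above 2 TPM. The libraries of aNE_M and pNE_M overlapped, and those of pNE_H lay below both and above all other groups.

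NKX6-1 rose in the midbrain medium by 2.62 ± 0.20 from aNE (limma, adjusted p = 3.22e-07) and by 2.40 ± 0.20 from pNE (adjusted p = 7.47e-07). The hindbrain medium gave 0.43 ± 0.20 from aNE (adjusted p = 0.115), which was not called (1.67 and called with a pseudocount of 0.1), and 2.06 ± 0.20 from pNE (adjusted p = 3.20e-06). In pNE_H it was higher than in aNE_H by 1.70 ± 0.20 (adjusted p = 3.33e-05). Within aNE-derived cells it was lower in the hindbrain than in the midbrain medium by -2.18 ± 0.20 (adjusted p = 4.66e-06). The same contrast in pNE-derived cells gave -0.34 ± 0.20 (adjusted p = 0.280), which was not called.

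Endoderm and pancreas markers were higher in pNE_H than in aNE_H, as NKX6-1 was. The 6 genes, of which 2 were tested, summed to 8.54 to 11.0 TPM in pNE_H, above every other group, and to 0.325 to 0.667 TPM in aNE_H. Both tested genes were called higher in pNE_H than in aNE_H (median difference 2.00, beside -0.04 over all genes). They were GATA4, a factor of endoderm and heart, at 6.59 and 5.63 TPM in pNE_H, and GATA6, its relative, at 2.96 and 1.98 TPM. In the other groups with high NKX6-1 the sums were 0.106 to 0.494 TPM in aNE_M and 2.47 to 3.32 TPM in pNE_M. In pNE_T, where NKX6-1 did not pass 0.241 TPM, the sum was 5.05 to 5.68 TPM. PTF1A, the pancreatic factor, was listed at 0 in all 18 libraries. The motor neuron genes MNX1, ISL1 and LHX3 stayed under 1 TPM in all libraries. STMN2, a gene of young neurons, was at 20.4 and 22.4 TPM in aNE_M and at or below 2.14 TPM elsewhere. Of the 9 neuron genes 5 were tested, and from aNE 2 were higher and 0 lower in aNE_M, beside 12.0% of all genes. The neuron gene DCX was at 0.564 and 1.34 TPM in aNE_M and 1.41 and 1.31 TPM in aNE. ELAVL3, another, was at 1.75 and 0.112 TPM in aNE_M and 1.02 and 1.45 TPM in aNE. The part of endoderm or neurons in the NKX6-1 values was not tested.

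NKX6-2, a close relative of NKX6-1, did not pass 0.143 TPM in any library and was listed at 0 in both libraries of aNE_M, where NKX6-1 was highest. NKX2-2, the marker of progenitors next to the floor plate, reached at most 0.172 TPM, in pNE_T replicate 1, and was listed at 0 in all libraries of hPSC, pNE, pNE_M and pNE_H. OLIG2, the factor of motor neuron and oligodendrocyte progenitors, was highest in pNE_T, at 0.647 and 0.701 TPM. In pNE_H its libraries were at 0.601 TPM and listed at 0, so they span nearly the whole range of the gene. Values this low were not tested.

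Other genes of the dorsoventral axis were read from a list chosen with these members. Of 13 other dorsal and intermediate progenitor genes, 6 were tested. MSX1, a homeobox gene induced by BMP in dorsal progenitors, was at 279.8 and 242.7 TPM in aNE_M, 87.0 and 79.8 TPM in aNE_H, 666 and 646 TPM in pNE_M, and 42.7 and 34.2 TPM in pNE_H. It did not pass 2.55 TPM in any library of the other groups. MSX1 and PAX3 thus had their highest levels in the same 4 groups, though PAX3 was at only 2.37 and 4.54 TPM in pNE_H. Their order differed: MSX1 was higher in pNE_M than in aNE_M by 1.33 ± 0.20 (limma, adjusted p = 4.53e-04), where PAX3 was lower by -1.59. In the hindbrain medium both were lower in pNE_H, MSX1 by -1.10 ± 0.20 (adjusted p = 0.00152).

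MSX2, the paralogue of MSX1, was at 38.5 and 36.0 TPM in aNE_M and 71.2 and 82.7 TPM in pNE_M. OLIG3, a dorsal basic helix-loop-helix gene, was at 7.09 and 9.23 TPM in pNE and at or below 2.00 TPM in all other libraries. LMX1A, the roof plate gene, was at 4.41 and 4.80 TPM in aNE. Against its day-2 origin, the list gave 3 genes higher and 2 lower in aNE_M, 2 and 2 in aNE_H, and 0 and 2 in aNE_T. In pNE-derived cells it gave 2 and 1 in pNE_M, 3 and 1 in pNE_H, and 1 and 1 in pNE_T. The median difference of the tested genes was 0.87 in aNE_M and 0.09 in pNE_M, beside -0.02 and -0.06 over all genes.

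IRX3, an intermediate homeobox gene, resembled PAX6 in part. It was at 33.3 and 32.1 TPM in aNE and 7.25 and 10.0 TPM in pNE, then at 29.3 and 28.7 TPM in pNE_T and 7.56 and 6.67 TPM in aNE_T. In the hindbrain medium it was at 39.4 and 30.7 TPM in pNE_H and 9.85 and 6.02 TPM in aNE_H. Its interactions of origin and medium were 3.71 ± 0.29 in the forebrain, 2.09 ± 0.29 in the midbrain and 3.86 ± 0.29 in the hindbrain medium (limma, adjusted p = 1.98e-06, 3.27e-04 and 1.45e-06).

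Of 10 other ventral and floor plate genes, 3 were tested, and 7 stayed under 1 TPM in every library, among them NKX2-1, NKX2-8 and OLIG1. FOXA2, the floor plate factor that switches on SHH, was at 4.36 and 6.01 TPM in pNE_T and 5.0 and 4.29 TPM in pNE_H, and at or below 0.501 TPM in every aNE-derived day-4 library. SHH, the ventral signal itself, was at 2.01 and 2.39 TPM in pNE_T and 0.775 and 2.47 TPM in pNE_H. Both were higher in pNE_T than in aNE_T, FOXA2 by 2.60 ± 0.20 (limma, adjusted p = 7.40e-07) and SHH by 1.58 ± 0.25 (adjusted p = 4.98e-04). In pNE_M, where NKX6-1 was at 5.0 and 4.95 TPM, FOXA2 was at 0.0890 TPM and listed at 0, and SHH at 0.0144 and 0.0340 TPM. FOXA2 is also an endoderm gene, and the endoderm markers summed to 5.05 to 5.68 TPM in pNE_T.

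The hedgehog pathway list held 12 genes, 11 of them tested. PTCH1, the receptor and a direct target, was at 85.3 and 78.6 TPM in pNE_M and between 10.3 and 55.6 TPM in all other libraries. HHIP, a secreted inhibitor and target, was at 34.6 and 34.3 TPM in pNE_M, 29.3 and 25.1 TPM in aNE_H, and 5.53 and 6.90 TPM in aNE_M. GLI1, the usual readout of the pathway, varied widely between replicates, at 15.4 and 6.69 TPM in pNE_M and 3.31 and 8.91 TPM in aNE_M. At day 2 it was at 15.0 and 10.9 TPM in pNE and 12.8 and 10.1 TPM in aNE, and in hPSC at 7.98 and 13.3 TPM. Unlike PTCH1, its mean was below that of the day-2 origin in every day-4 group. From day 2 the list gave 2 genes higher and 0 lower in aNE_M, and 5 and 0 in pNE_M. In the hindbrain medium it gave 3 and 1 in aNE_H, and 2 and 0 in pNE_H. The forebrain medium gave 3 and 0 in pNE_T and 1 and 2 in aNE_T. NKX6-1 did not pass 0.241 TPM in either forebrain group. Of all tested genes, 12.0% were called in aNE_M, 12.7% in pNE_M, 10.1% in aNE_H and 12.3% in pNE_H. The forebrain shares were 10.2% in pNE_T and 9.03% in aNE_T. PTCH1 was higher in pNE_M than in aNE_M by 1.19 ± 0.12 (limma, adjusted p = 1.01e-05), and the NKX6-1 levels of these groups overlapped. The part of hedgehog signalling in the NKX6-1 values was not tested.

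**Figure D4:**
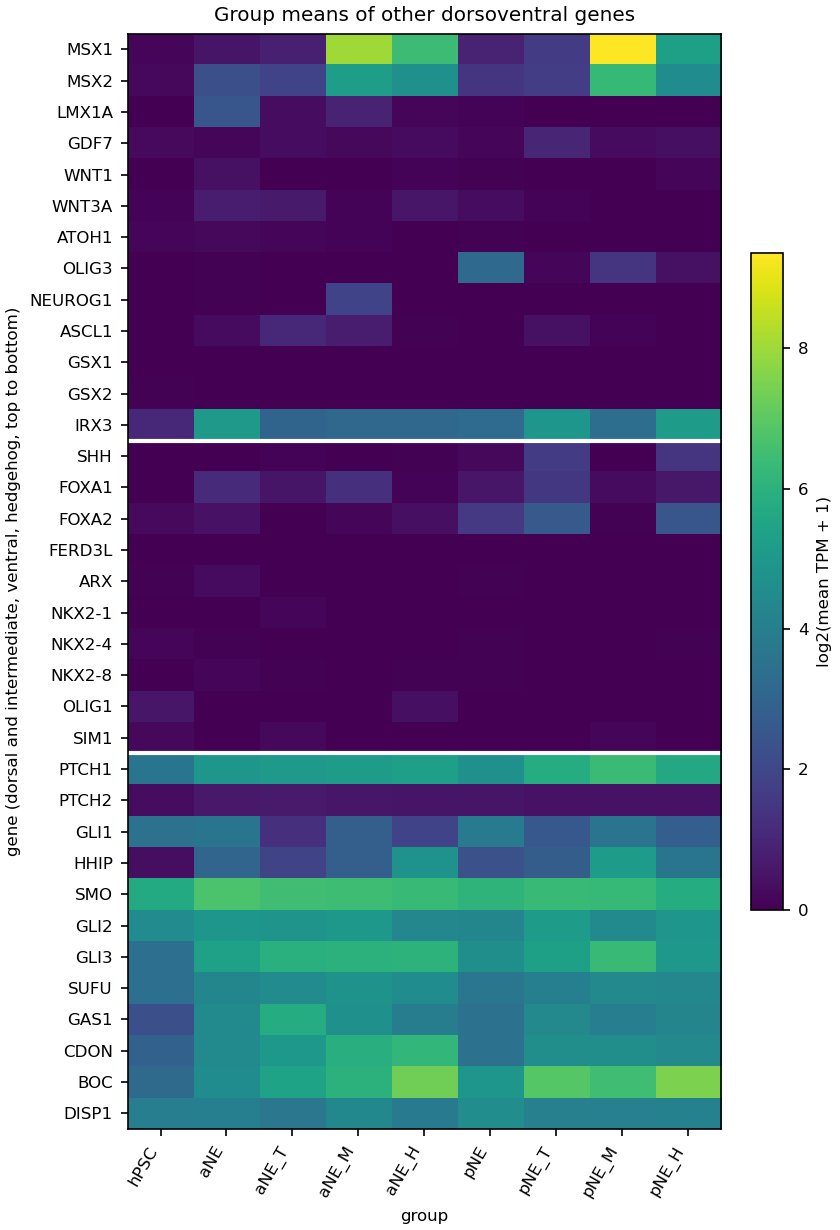
Group means of 35 other genes of the dorsoventral axis and the hedgehog pathway (vertical axis) in the 9 groups (horizontal axis), coloured by log2(mean TPM + 1). White lines divide dorsal and intermediate genes, ventral genes and hedgehog pathway genes. MSX1 is brightest in pNE_M, at 666 and 646 TPM, and the ventral block is dark apart from SHH, FOXA1 and FOXA2.

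The BMP response list of 8 genes, all tested, was read beside the dorsal genes because BMP signals specify dorsal progenitors. From day 2, 4 genes were higher and 0 lower in pNE_M, 5 and 0 in pNE_H, and 4 and 1 in pNE_T. Of all tested genes, 12.7%, 12.3% and 10.2% were called in these comparisons. In aNE-derived cells the counts were 1 and 2 in aNE_M, 1 and 1 in aNE_H, and 1 and 1 in aNE_T. The shares of all genes there were 12.0%, 10.1% and 9.03%. Between origins, 4 were higher and 0 lower in pNE_M than in aNE_M, beside 5.74% of all genes. In the hindbrain medium, 4 were higher and 1 lower in pNE_H than in aNE_H, beside 6.83%. ID1, a direct target, was at 162 and 167 TPM in pNE_M and 58.0 and 45.6 TPM in aNE_M, and at 368 and 274 TPM in pNE_H and 48.8 and 35.2 TPM in aNE_H. BAMBI, a BMP-induced inhibitor of the pathway, and SMAD6, an inhibitory SMAD, were likewise higher in pNE-derived cells in both media. ID4 was higher in pNE_M than in aNE_M but lower in pNE_H, at 40.6 and 36.7 TPM, than in aNE_H, at 95.8 and 96.6 TPM. ID2 was at 28.0 and 24.2 TPM in pNE_M and 45.0 and 43.4 TPM in aNE_M, a difference that was not called. PAX3 was lower in pNE-derived cells in both the midbrain and the hindbrain medium. The part of BMP signalling in the PAX3 and PAX7 values was not tested.

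The 7 retinoic acid response genes, all tested, were read because retinoic acid acts on hindbrain and spinal progenitors and TTNPB was in the day-2 medium of pNE. Their sum was 236 to 244 TPM in aNE and 612 to 626 TPM in pNE. At day 4 it was between 3.42 and 6.21 TPM in aNE-derived libraries and between 452 and 737 TPM in pNE-derived ones. Of the other PAX genes, PAX2 and PAX5, which mark the midbrain-hindbrain border, were also high in aNE_M, PAX2 at 100 and 101 TPM and PAX5 at 68.6 and 74.7 TPM. In pNE_M, PAX2 was at 33.0 and 33.1 TPM and PAX5 at 0.198 and 0.749 TPM. PAX8 reached 6.25 and 3.84 TPM in pNE_H, and PAX1, PAX4 and PAX9 stayed under 1 TPM in all libraries.

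Media were also compared directly within an origin. In aNE-derived cells, PAX3 and NKX6-1 were higher and PAX6 lower in the midbrain than in the forebrain medium, by 5.94, 2.69 and -2.26, 3 of 5 tested members beside 10.1% of all genes. The hindbrain against the forebrain medium gave PAX3 higher by 4.70 and PAX6 lower by -2.06, 2 of 5 beside 6.60%. In pNE-derived cells, the midbrain against the forebrain medium gave 4 of 5 beside 8.60%: PAX3 higher by 4.73, PAX7 by 2.75 and NKX6-1 by 2.37, and PAX6 lower by -4.68. The hindbrain against the forebrain medium gave 3 of 5 beside 5.03%: PAX3 higher by 1.45 and NKX6-1 by 2.03, and PAX6 lower by -2.46. In both origins PAX6 was thus highest in the forebrain medium, and PAX3 lowest.

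Whether the origins responded differently to a medium was tested as an interaction, the change from pNE minus the change from aNE. In the forebrain medium 3 of 5 tested members were called beside 7.14% of all genes, in the midbrain medium 2 beside 7.02%, and in the hindbrain medium 4 beside 7.83%. PAX6 was called in all 3 media, with values of 4.25 ± 0.30, 1.82 ± 0.30 and 3.85 ± 0.30 (limma, adjusted p = 6.64e-07, 0.00102 and 1.57e-06). These 3 values share the day-2 libraries, where PAX6 was lower in pNE. PAX7 was called in the forebrain medium at -3.45 ± 0.23 (adjusted p = 3.76e-07) and in the hindbrain medium at -3.15 ± 0.23 (adjusted p = 9.34e-07). PAX3 was called in the midbrain medium at -1.61 ± 0.32 (adjusted p = 0.00395) and in the hindbrain medium at -3.65 ± 0.32 (adjusted p = 4.47e-06). NKX6-1 was called in the hindbrain medium at 1.62 ± 0.28 (adjusted p = 0.00127), and DBX1 in the forebrain medium at 1.69 ± 0.38 (adjusted p = 0.0102).

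Some interactions depended on a setting or a library. With a pseudocount of 0.1, the PAX3 value in the midbrain medium was -1.65 (limma, adjusted p = 0.0554, range over the alternatives 0.00205 to 0.0554) and the PAX6 value 1.11 (adjusted p = 0.152, range 3.29e-04 to 0.152), and neither was called. The DBX1 value in the hindbrain medium was 0.88 and not called, and it was 1.33 and called without aNE_H replicate 1, and 0.42 without aNE_H replicate 2.

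The members moved together only in part across the 18 libraries. On the log2(TPM + 1) scale, PAX3 correlated with PAX7 at r = 0.739 and with NKX6-1 at r = 0.728, so a dorsal and a ventral gene were about equally close to it. PAX6 and DBX1 correlated at r = 0.615, and PAX6 and NKX6-1 at r = -0.384. The libraries fall into 9 groups of replicates, so these values are descriptions of the group pattern.

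Genes with patterns most like each member were taken among genes with a group mean of at least 5 TPM, by Pearson's r over the 18 libraries. For PAX3 these were PDE3B (r = 0.971), TMEM132C (0.970) and TNFRSF11B (0.962), all highest in aNE_M. For PAX7 they were ITPKB (0.898), TMEM109 (0.897) and MXI1 (0.891). For PAX6 they were NPC2 (0.924), GLIS3 (0.923) and FILIP1 (0.920). For NKX6-1 they were APLNR (0.929), AXIN2 (0.919), a negative feedback gene of WNT signalling, and SOX8 (0.919). DBX1 had no gene above r = 0.769, that of PTPN13, followed by AIFM3 (0.748) and ZNF707 (0.745).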

How the data were processed

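Poly-A messenger RNA from 18 libraries was sequenced by a service provider, per the labels' protocols. TPM values for 37550 rows were computed and deposited by the authors, 1 column per library, and 7898 rows carry a transcript identifier with no symbol. The submitters' processing notes name hg38, bcl2fastq, FastQC, Trim Galore, kallisto and deepTools, without roles or versions. The annotation, the step from transcripts to genes and the use of strand are not given in the sources used here. TPM keeps no depth, so no counting error is given.

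Analysis used log2(TPM + 1) of 17033 genes, those that reached 1 TPM in 2 or more libraries. The 18 libraries were fitted together with limma 3.58.1 (R 4.3.3), each group having its own mean (9 residual degrees of freedom) and variances following a trend, which gave 18 comparisons and 3 interactions. P-values were two-sided and adjusted by the Benjamini-Hochberg method over all tested genes. The fit was tested on simulated data first. The members, marker lists and other gene lists were chosen with earlier results of these data known. All members and list genes were open to naming, with the 3 most like genes of each member that reached a group mean of 1 TPM. Alternatives were quantile normalization, median-ratio scaling, a pseudocount of 0.1, a filter at 5 TPM, no filter, fitting only the compared libraries, a replicate block, calls by adjusted p alone, and leaving out each library in turn. Same-numbered replicates did not deviate together (r from -0.0896 to 0.0762 over 36 pairs of groups). Gene positions and upstream sequences are from RefSeq (GRCh38.p14), which gave an upstream window for 6 of the 9 members. Shared 31-base words were counted in GENCODE transcripts.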

Additional observations from a re-analysis of the deposited data

Results flagged for a closer look

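For 9 combinations of member and medium, the change from day 2 differed between the origins by the reported test, limma over all 18 libraries (2 per group). Values are log2 differences of pNE-derived minus aNE-derived responses, with Benjamini-Hochberg adjusted p. For PAX6 the forebrain medium gave 4.25 (adjusted p = 6.64e-07), the midbrain medium 1.82 (adjusted p = 0.00102) and the hindbrain medium 3.85 (adjusted p = 1.57e-06). PAX7 had a value of -3.45 in the forebrain medium (adjusted p = 3.76e-07) and -3.15 in the hindbrain medium (adjusted p = 9.34e-07). PAX3 had a value of -1.61 in the midbrain medium (adjusted p = 0.00395) and -3.65 in the hindbrain medium (adjusted p = 4.47e-06). NKX6-1 had a value of 1.62 in the hindbrain medium (adjusted p = 0.00127) and DBX1 a value of 1.69 in the forebrain medium (adjusted p = 0.0102). With a pseudocount of 0.1, the midbrain values of PAX3 (-1.65, adjusted p = 0.0554) and PAX6 (1.11, adjusted p = 0.152) were not called, so those 2 of the 9 depend on that setting. Plating density changed with origin at day 4, so the origins and the densities cannot be told apart in any of them.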

How the results depend on the processing

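Of 1243 member differences read under the alternatives, 1213 kept their side of the threshold, 10 lost a call and 20 gained one. Of those gained, 9 came from calls by adjusted p alone, which keeps the reported values and drops the size rule. Among the 1213, 20 changed sign, none of them called either way, with reported sizes of at most 0.45. The counts of called members were 3 for day 2 against hPSC, 2 between origins at day 2, 6 between origins at day 4, 18 for day 4 against day 2, 17 between media and 9 interactions. Each count adds up its comparisons, which share libraries and had 5 tested members each. Beside them, between 3.85% and 13.5% of all tested genes were called per comparison. A pseudocount of 0.1 gave 5 calls for day 2 against hPSC. Between origins at day 2, the filter at 5 TPM, which leaves out DBX1, gave 1 call, and leaving out single libraries gave 1 to 2. The other counts stayed within 1.5 times. The replicate block gave 18 calls for day 4 against day 2 and changed no call of a member. By adjusted p alone, the calls over all tested genes rose from between 655 and 2307 to between 2103 and 7073 per comparison. With 2 libraries per group and no depth in TPM, differences among genes under 1 TPM could not be judged.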
